A study of Mus musculus with 127 samples.

Results

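The genes described here are those that encode the proteins of the large ribosomal subunit. They were chosen by symbol: every gene named Rpl followed by a digit, together with Rplp0, Rplp1 and Rplp2, and without the pseudogene symbols that contain -ps. The rule gave 53 members among the 24320 gene symbols of the table. Their mRNA was measured in 127 single cells labelled as erythroblasts of C57BL/6J mouse marrow, in 3 groups. Flvcr was deleted in 48 of the cells, 48 were wild-type without treatment, and 31 came from EPO-treated mice that were otherwise wild-type. FLVCR is a heme exporter of the cell membrane, and EPO (erythropoietin) is the hormone that drives red cell production. The labels give neither the agent that deleted Flvcr, nor the EPO dose, nor the mice behind the cells.

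The labels put each cell in a class whose code holds a letter from A to D, which they do not define. Classes A, B, C and D held 18, 16, 9 and 5 Flvcr-deleted cells, 6, 10, 19 and 13 wild-type cells, and 7, 11, 9 and 4 EPO-treated cells. No animal is named, so each group counts as 1 sample: no test was made between groups, and every SD below is over cells and describes those cells only. Each group was also run on its own capture chip (48 Flvcr-deleted cells on SCP2, 48 wild-type cells on SCP3, 27 EPO-treated cells on SCP7 and 4 on SCP6). Group and chip therefore cannot be told apart.

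A ribosome is built from a small and a large subunit. The large subunit holds the catalytic centre that joins amino acids, a flexible stalk that recruits the factors of translation, and a tunnel through which the new protein leaves. Its proteins are made in matched amounts in most cells, and erythroblasts need many ribosomes early, since they then fill with globin, and lose them as they mature into red cells. Inherited loss of 1 copy of several of these genes causes Diamond-Blackfan anaemia, a failure of red cell production, which is why the family is followed closely in this tissue.

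Promoters of ribosomal protein genes are known for a run of C and T at the start of transcription. The literal motif CTTTC was searched from 20 bases before to 50 bases after the first listed start of each gene in RefSeq promoters of build GRCm38.p6. Of the 49 members expressed here, 37 matched a promoter by symbol. The motif was present on the gene's own strand in 21 of the 37 (56.8%) and on either strand in 24 (64.9%), against 8.85% and 16.9% of 27025 promoters of all genes. Among 25 matched promoters of small-subunit genes it was on the gene's own strand in 9 (36.0%). The windows below show it, in capitals, in 4 of the 6 members most above and 3 of the 6 most below their wild-type level in Flvcr-deleted cells (5′ to 3′, 30 bases around the first match on the gene's strand).
Rpl39 (chrX:37085173-37085202, minus strand): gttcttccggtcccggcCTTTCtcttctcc
Rpl26 (chr11:68901578-68901607, plus strand): cgcgtgtagttctCTTTCcttttgcggcca
Rpl36a (chrX:134585674-134585703, plus strand): gctctagcctctctCTTTCcgagctgctag
Rpl28 (chr7:4792954-4792983, plus strand): ctctcgtgtctctCTTTCcgtctccggccg
Rpl4 (chr9:64173357-64173386, plus strand): acaagtgacaagtCTTTCcttttcctgtgg
Rpl7a (chr2:26910789-26910818, plus strand): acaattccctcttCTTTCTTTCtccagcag
Rpl5 (chr5:107900497-107900526, plus strand): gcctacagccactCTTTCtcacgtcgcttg
The motif stood in promoters at both ends of the ranking. Of the 6 most below, Rpl3 matched no promoter, and Rpl7l1 held the motif on the other strand only. For Flvcr-deleted against wild-type cells (classes B to D), the median difference in log2(RPKM + 1) was 1.15 for the 24 members with the motif on either strand and 1.33 for the 13 without a match.

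Values were deposited as RPKM, read counts divided by transcript length and by the read total of the cell, and are given as RPKM or as log2(RPKM + 1). The 4 members Rpl3l, Rpl10l, Rpl37rt and Rpl39l did not reach a mean log2(RPKM + 1) of 1 over all cells; Rpl3l and Rpl10l were detected (an RPKM of at least 1) in 0 cells, and Rpl37rt and Rpl39l in 1 cell each. The other 49 members were kept, with 2540 genes in all. The number of detected genes per cell in classes B to D ran from 645 to 3452 (median 1196.5) in Flvcr-deleted cells, from 1151 to 3871 (median 2199) in wild-type and from 638 to 3982 (median 1385) in EPO-treated cells. Depth in classes B to D was estimated at 758710 to 4877100 reads per Flvcr-deleted cell and 2092840 to 5339510 reads per wild-type cell. With class A added, the lowest estimates were 57298 and 2012840 reads. Depth could not be estimated in EPO-treated columns, which are rounded to 2 decimals. Flvcr1, listed under the older symbol Mfsd7b, was detected in 0 of 48 Flvcr-deleted, 1 of 48 wild-type and 0 of 31 EPO-treated cells, so it does not check the labels. Erythroid markers summed to 17.9 to 346 RPKM in wild-type class A cells, against at least 23606 in every wild-type cell of classes B to D and at least 19930 in every EPO-treated one. Among Flvcr-deleted cells in classes B, C and D they ran from 358 upwards, and 4 class B cells with at most 2.71% of globin gave the lowest globin shares. Markers of granulocytes and monocytes summed to at most 3569 RPKM in wild-type and 11484 in EPO-treated class A cells, and to at most 15.2 in any cell of classes B to D. In those classes the 6 megakaryocyte markers summed to 0 to 679 RPKM (median 19.7) in wild-type, 0 to 20.6 (median 0) in Flvcr-deleted and 0 to 191 (median 0) in EPO-treated cells. The 5 stem and progenitor markers reached 73.7 RPKM in Flvcr-deleted cells, 0 in wild-type cells and 0.03 in those treated with EPO. In the Flvcr-deleted cells of these classes 4 of the 5 were detected in no cell. Of the 6 megakaryocyte markers, 5 were detected in no Flvcr-deleted cell, 5 in no EPO-treated cell and 3 in no wild-type cell. At least 3 markers of either list were detected in 0 cells of these classes. Whether cells of other types had a part in the differences below was not tested. Class A is therefore described apart, and comparisons between groups use classes B, C and D. Ribosomal protein genes have near-identical processed copies elsewhere in the genome, and how reads with several matches were counted is not given in the sources used here, so single members are uncertain to that extent.

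In wild-type cells of classes B to D, most members were abundant and the order among them was wide. Rplp0, the base of the stalk, had the highest mean level, 9.16 on the log2 scale over the 3 classes, and Rpl3 (8.71), Rpl4 (8.57) and Rpl8 (8.24) were also among the highest. These members differed by far less than the SD over cells, which was 2.12 for Rplp0, 2.31 for Rpl3 and 2.89 for Rpl4 (n = 42 cells). At the other end stood Rpl22l1 (4.22), Rpl22 (3.33), Rpl36al (1.52) and Rpl7l1 (1.44). Of these, Rpl22l1, Rpl36al and Rpl7l1 are paralogs of other members. Rpl36al was detected in 19 and Rpl7l1 in 16 of the 42 cells, against 41 for Rpl8 and 42 for Rplp0.

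**Figure D1:**
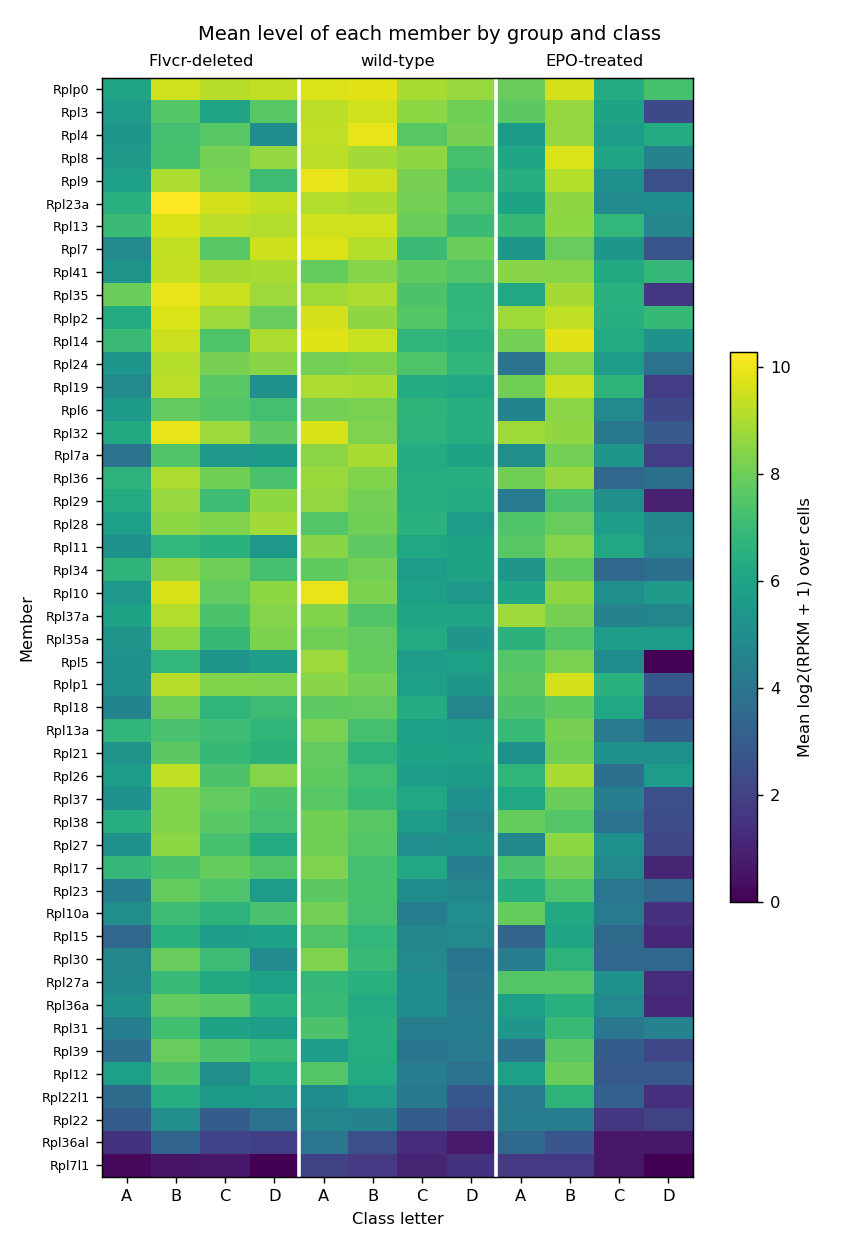
Mean log2(RPKM + 1) over the cells of each group and class (colour) for 48 of the 49 kept members, ordered by their mean wild-type level over classes B to D. Most rows darken from class B to class D within each group, most strongly in EPO-treated cells, where the median of the member means went from 8.18 in class B to 2.86 in class D.

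Among classes B to D, the family was highest in class B in each group. The median of the 49 member means was 7.86, 6.17 and 5.86 in wild-type classes B, C and D, 8.34, 7.46 and 7.23 in Flvcr-deleted cells, and 8.18, 5.09 and 2.86 in EPO-treated cells. The groups were closest in class B and furthest apart in class D. The same letter did not mean the same normalized signal of Ter119, a surface marker that increases as erythroblasts mature. In class B it was 0.330 to 0.541 in wild-type and 0.313 to 0.494 in Flvcr-deleted cells. In EPO-treated class B cells it was 0.0387 to 0.197 on chip SCP7, and 0.00064 and 0.0023 on chip SCP6. The part of this in the differences between groups was not tested. Single cells varied widely within a class. The median member of a wild-type class C cell ranged from 0 to 9.26, that of an EPO-treated class C cell from 0 to 9.27, and that of a Flvcr-deleted class C cell from 5.23 to 9.99.

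As a share of all RPKM outside the globin genes, the members made up a median of 16.6% in Flvcr-deleted class B cells (range 5.34% to 23.4%), 9.04% in wild-type (2.42% to 12.3%) and 13.9% in EPO-treated cells (5.51% to 16.2%). In class D the medians were 12.6% (5.91% to 16.0%), 3.79% (0.615% to 10.2%) and 2.11% (1.02% to 11.7%). The ranges of the groups overlapped in every class. Over classes B to D the median share was 16.0% with Flvcr deleted (30 cells), 6.37% in the 42 wild-type cells and 10.7% in the 24 treated with EPO. With the globins in the total, the medians were 1.35%, 2.03% and 2.99%, so the order of Flvcr-deleted and wild-type cells turned with the denominator. Globin genes took a median of 90.7%, 69.6% and 64.8% of the summed RPKM in those cells.

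**Figure D2:**
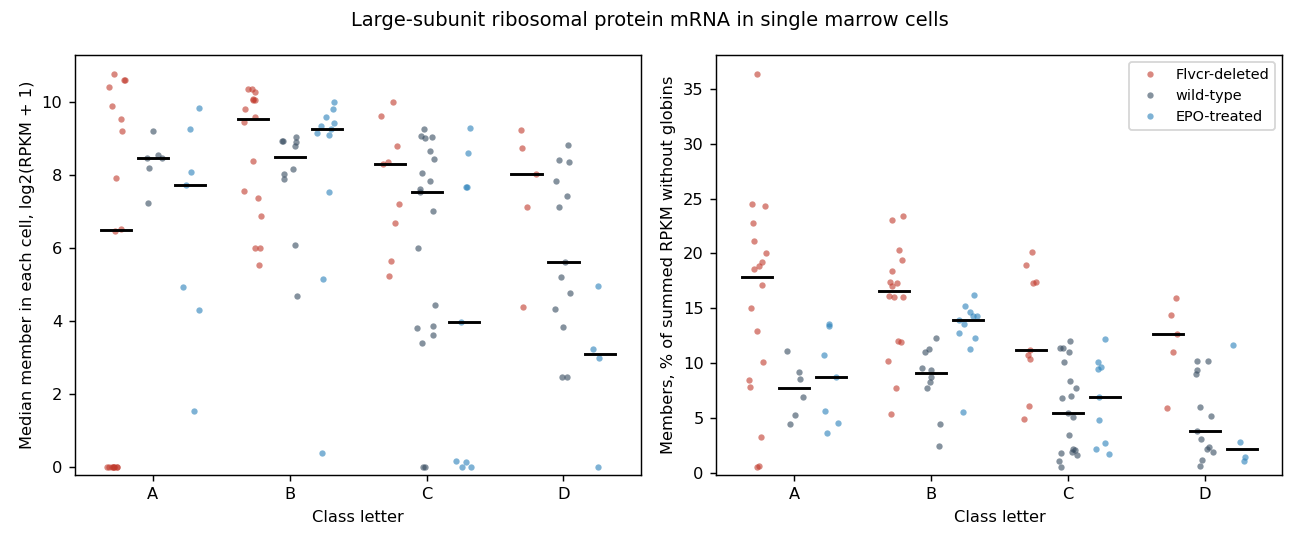
Each point is 1 cell, by group (colour) and class letter; black bars are medians. Left, the log2(RPKM + 1) of the median member of the cell; right, the members' percent of summed RPKM without globins. Flvcr-deleted cells of class D had a median share of 12.6% and wild-type cells 3.79%, with ranges that overlap.

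Compared with wild-type cells, those with Flvcr deleted had, over classes B to D, higher deposited RPKM levels of most large-subunit mRNAs. Differences were taken within each class and averaged over B, C and D. A member was counted as higher or lower when the mean difference was at least 1 on the log2 scale and had the same sign in all 3 classes. By that rule 31 of 49 members were higher, 2 were lower and 16 were neither, with a median difference of 1.15. Among all 2540 kept genes 3.74% were higher and 48.3% lower, with a median of -1.08. The median member difference was 0.58 in class B, 1.23 in class C and 1.51 in class D, beside -1.29, -1.13 and -0.79 for all kept genes.

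The 2 groups also differed in detected genes, in globin share, in summed RPKM and in chip, and the part of these in the result was not tested. The summed RPKM of a cell had a median of 1543670 in Flvcr-deleted and 718047 in wild-type class C cells. In class D the medians were 1571760 and 920078. In class B it ran from 341488 to 1992700 in Flvcr-deleted and from 379152 to 1097100 in wild-type cells. When every cell was scaled to 1 sum of RPKM, the median difference was 0.34, with 5 members higher and 6 lower; with the globins left out of that sum it was 1.59 for the same 49 members. With the filter then applied anew, 48 members were kept, 35 of them higher and 0 lower. In cells with 1000 to 2000 detected genes, 4 Flvcr-deleted and 2 wild-type cells of class B among them, it was 3.32, with 46 higher and 0 lower. Without 4 Flvcr-deleted class B cells that were low in globin it was 1.02, with 19 higher and 4 lower. The share of all kept genes counted in each of these settings is not given here, so these counts do not show what is particular to the family. Scaling moved the median of all kept genes from -1.08 to -1.32 with 1 sum and to -0.91 without globins; the median member lay 2.23, 1.67 and 2.50 above it in the 3 forms.

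Members of the catalytic centre were among both the lowest and the highest. Rpl3 and Rpl4, the long proteins whose extensions reach towards the catalytic centre and the tunnel wall, were the 2 members counted as lower. Rpl4 had RPKM values of 143 to 2385 (median 1251) in 10 wild-type class B cells and of 0 to 2204 (median 556) in 16 Flvcr-deleted cells. In class D it ran from 0 to 1576 (median 569) in 13 wild-type cells and was 0.426, 280, 427, 56.7 and 2.52 in the 5 Flvcr-deleted cells. All 5 of these lay below the wild-type median, and the ranges overlapped. Its mean level was 6.63 in Flvcr-deleted and 8.57 in wild-type cells, a difference of -1.94, made up of -2.66, -0.01 and -3.16 in classes B, C and D.

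Rpl3 had a mean level of 7.05 in Flvcr-deleted and 8.71 in wild-type cells (-1.66; -1.99, -2.53 and -0.46 by class). In class C its RPKM ran from 0.18 to 1893 (median 624) in 19 wild-type cells and from 0 to 1221 (median 364) in 9 Flvcr-deleted cells, of which 6 had a detectable level. In cells with 1000 to 2000 detected genes the differences of Rpl4 and Rpl3 turned to 0.08 and 0.56. Rpl8 differed by -0.21 (-1.55, -0.44 and 1.37 by class), a sign that turned when cells were scaled to 1 sum without globins (0.21). By contrast Rpl10, which joins the subunit last and sits beside the catalytic centre, was higher by 2.13 (1.41, 1.95 and 3.04), or 4.39-fold on the log2(RPKM + 1) scale. Its RPKM in class D ran from 82.3 to 703 (median 498) in the 5 Flvcr-deleted cells and from 0 to 923 (median 109) in wild-type cells.

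Of the 7 members around the rim of the exit tunnel, 6 were counted as higher, beside 31 of 49 in the whole family. Their median difference was 1.65, beside 1.15 for the family. Rpl39, one of the smallest ribosomal proteins, which lines the tunnel, had the largest difference of all members, 2.53 (1.53, 3.35 and 2.70 by class; 5.77-fold). In classes B to D, all 30 of the 30 Flvcr-deleted cells had it at a detectable level, as did 33 of 42 wild-type cells. In class C its RPKM ran from 9.27 to 346 (median 230) against 0 to 240 (median 8.95), and in class D it was 43.7, 80.8, 208, 305 and 139 in Flvcr-deleted cells against 0 to 205 (median 29.3) in wild-type. Rpl26 differed by 2.19, Rpl35 by 1.67, Rpl17 by 1.65, Rpl23a by 1.54 and Rpl31 by 1.25. Rpl19 was the exception at 0.21, with 0.24, 1.32 and -0.94 in the 3 classes.

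Of the 4 stalk genes, 3 were counted as higher, beside 31 of 49 in the whole family. Rplp1, one of the acidic stalk proteins, differed by 2.13 (4.39-fold), Rpl12, at the stalk base, by 1.45, and Rplp2, the partner of Rplp1, by 1.15. Rplp0 differed by 0.18, and by -0.66 with every cell scaled to 1 sum. Its RPKM in class D was 351 to 1848 (median 471) in Flvcr-deleted and 76.0 to 1773 (median 359) in wild-type cells, ranges that overlap.

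Rpl5 and Rpl11, which carry the ribosomal RNA named 5S into the subunit and bind the p53 regulator Mdm2 when ribosome assembly fails, were neither higher nor lower. They differed by -0.48 and -0.35. In class B, Rpl5 had a median of 361 RPKM against 389 in wild-type cells and a difference in mean level of -1.06. Rpl11 had a median of 408 RPKM against 311 and a difference in mean level of -0.93, so that median and mean pointed in opposite directions; 3 of 16 Flvcr-deleted class B cells had no detectable Rpl11, and all 10 wild-type cells had it.

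Among the 9 members mutated in Diamond-Blackfan anaemia, 6 were counted as higher, a share close to the 31 of 49 of the whole family (Rpl18 by 1.01, Rpl26 by 2.19, Rpl27 by 1.43, Rpl31 by 1.25, Rpl35 by 1.67 and Rpl35a by 1.42). Rpl15 (0.55), Rpl5 and Rpl11 were not. Of the paralogs, Rpl22l1 was higher by 1.597, while Rpl36al (0.92) and Rpl7l1 (-0.99) were neither.

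**Figure D3:**
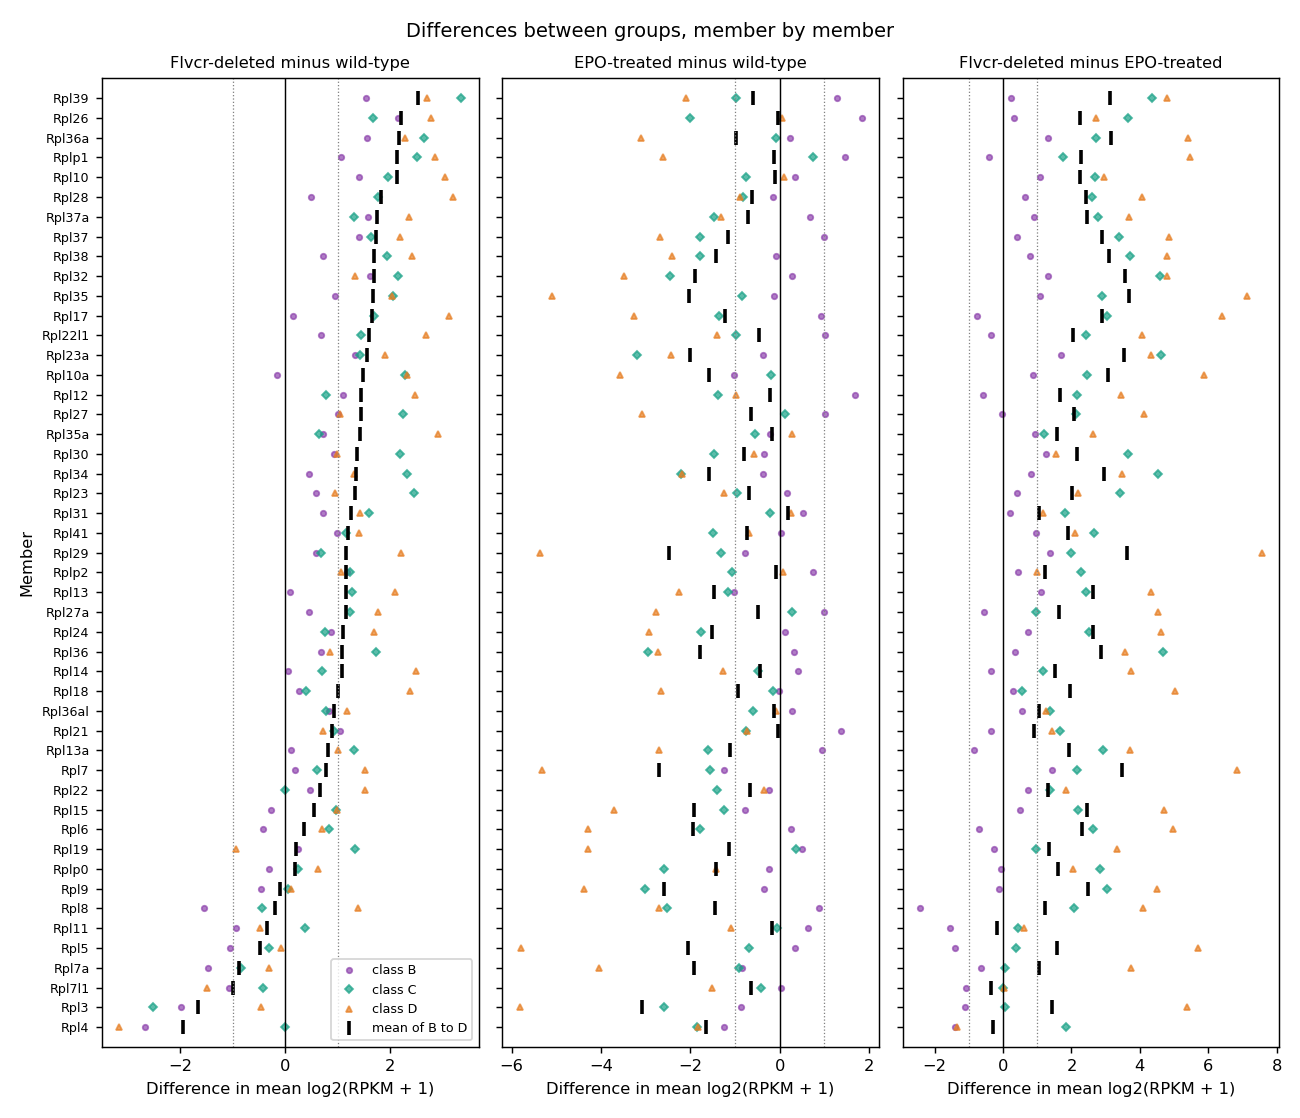
Difference in mean log2(RPKM + 1) for 48 of the 49 kept members in each pair of groups, in class B (circles), class C (diamonds) and class D (triangles), with the mean of the 3 as a black bar; dotted lines mark -1 and 1. The left panel runs from Rpl4 at -1.94 to Rpl39 at 2.53, and the class D points of the middle panel reach -5.82 at Rpl3.

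Against wild-type cells, the EPO-treated ones had a median member difference of 0.24 in class B, -1.17 in class C and -2.43 in class D. All kept genes had medians of -0.68, -1.13 and -1.13, so the members lay above them in class B, beside them in class C and below them in class D. The median over the 3 classes was -1.12. By the same rule 0 of 49 members were higher and 14 lower. Among all kept genes 0.512% were higher and 42.0% lower, with a median of -0.99, so the family's share of lower members was below that of all genes. Both this comparison and that of Flvcr-deleted cells use the same wild-type cells.

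Rpl3 had the largest difference, -3.09 (-0.87, -2.58 and -5.82 by class). In class D its RPKM was 0.05, 48.6, 8.84 and 0 in the 4 EPO-treated cells, against a median of 390 in wild-type cells. It was followed by Rpl7 (-2.70), Rpl9 (-2.58) and Rpl29 (-2.48), and then by Rpl35 (-2.02). Rpl5 differed by -2.05 but not in the same direction in each class (0.35, -0.69 and -5.79): it was listed at 0 in 3 of the 4 EPO-treated class D cells and at 0.19 RPKM in the other. Of the stalk genes, Rplp0 was counted as lower (-1.42). The others had means near 0, with Rplp1 at -0.14 (1.45, 0.74 and -2.60 by class), Rplp2 at -0.08 and Rpl12 at -0.22, signs that turned when cells were scaled to 1 sum without globins (0.13, 0.27 and 0.07). At the top of the ranking Rpl31 stood at 0.19 and, with 1 sum, at -0.04.

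In cells with 1000 to 2000 detected genes the median of this comparison turned to 1.32, with 18 members higher and 0 lower; that range held 5, 5 and 2 EPO-treated and 2, 8 and 8 wild-type cells of classes B, C and D. With every cell weighted alike it was -0.29, with 8 members lower. The sign of the members' median between EPO-treated and wild-type cells therefore depended on which cells were compared. The median and counted share of all kept genes in these settings are not given here. These values therefore do not show what is particular to the family.

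Flvcr-deleted cells had higher levels than EPO-treated cells, above all in class D. The median member difference was 0.34, 2.43 and 4.08 in classes B, C and D, beside -0.54, -0.04 and 0.23 for all kept genes, and 2.16 over the 3. Of the 49 members 29 were higher and 0 lower, against 7.76% and 8.86% of all kept genes, whose median was -0.12. Rpl35, a protein of the tunnel rim, led with 3.69 (1.07, 2.89 and 7.12 by class). Its class D RPKM was 78.7, 397, 877, 664 and 873 in Flvcr-deleted cells and 0, 0, 9.42 and 8.39 in EPO-treated cells, which did not overlap. Rpl29 (3.64), Rpl32 (3.58), Rpl23a (3.55), Rpl7 (3.47) and Rpl36a (3.15) came next. At the other end were Rpl7l1 (-0.36), Rpl4 (-0.30), Rpl11 (-0.17), Rpl21 (0.92) and Rpl7a (1.05). In cells with 1000 to 2000 detected genes the median was 1.91, with 24 higher and 0 lower. With every cell scaled to 1 sum it was 1.42, with 9 higher and 0 lower. Both counts stand without the share of all kept genes in the same setting.

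From class B to class D, 46 of 49 members were lower by at least 1 in wild-type cells and 0 higher, with a median of -2.004. Among all kept genes 46.1% were lower and 5.39% were higher, and the median was -0.90. Rpl18 (-3.12), Rpl7a (-3.07) and Rpl30 (-2.98) had the largest differences. Rpl41, the shortest member, at -0.85, Rpl21 at -0.77 and Rpl7l1 at -0.19 had the smallest. In Flvcr-deleted cells the median was -0.98, with 24 lower and 1 higher, against 30.6% lower and 13.5% higher of all kept genes. Rpl19 (-4.00), Rpl30 (-2.91) and Rpl4 (-2.24) lay lowest. The member that was higher was Rpl8, at 1.37, with RPKM of 1.34 to 1988 (median 481) in class B and of 110 to 1087 (median 726) in class D. Rpl28 (0.29) and Rpl10a (0.23) were the next, and both were below 0 with every cell scaled to 1 sum (-0.34 and -0.55).

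In EPO-treated cells 49 of 49 members were lower in class D than in class B and 0 higher, with a median of -4.89, against 58.3% lower and 10.9% higher of all kept genes. Rpl5 (-8.14), Rpl19 (-7.59) and Rpl35 (-7.22) had the largest differences, and Rpl41 (-1.57), Rpl7l1 (-1.74) and Rpl35a (-1.95) the smallest. The 4 EPO-treated class D cells had 15, 29, 39 and 33 of the 49 members at a detectable level. EPO-treated class B cells had 19 to 49 (median 48). Large differences such as that of Rpl19, at 0, 0, 175 and 0 RPKM in class D, mix cells with and without detection. Without the 4 low-globin Flvcr-deleted class B cells, the Flvcr-deleted median was -0.45, with 9 members lower and 3 higher.

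The make-up of the set, taken as a member's level minus that of the median member of the same cell, is given by its rank among the 49. Rplp0 ranked 4, 1 and 1 of 49 in the Flvcr-deleted, wild-type and EPO-treated groups, and the 4 lowest ranks went to Rpl22l1, Rpl22, Rpl36al and Rpl7l1 in wild-type and Flvcr-deleted cells. Rpl4 ranked 3 in wild-type, 5 in EPO-treated and 38 in Flvcr-deleted cells, where its relative level was -1.33 instead of 1.91. Rpl3 ranked 2 in wild-type, 21 in EPO-treated and 34 in Flvcr-deleted cells. Rpl7a and Rpl11 also ranked lower in Flvcr-deleted cells (43 and 41, against 18 and 22 in wild-type), and Rpl39 and Rpl26 higher (27 and 15, against 44 and 32).

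The ranks can be set beside coding length, which runs from 75 bases (Rpl41) to 1257 bases (Rpl4) among the kept members. Across the 49 members the Spearman correlation of coding length with the difference between Flvcr-deleted and wild-type cells was -0.67. The median difference was 1.43 in the 25 members of at most 471 bases and 0.66 in the 24 longer ones. Genes of 1 assay share its libraries and are not independent, so this is a description. The 1436 other kept genes that were no longer than the longest member had a correlation of -0.39 in the same comparison. For EPO-treated against wild-type cells the correlation was -0.40 among members and -0.10 among the other genes, and for Flvcr-deleted against EPO-treated cells -0.29 and -0.39. Rpl10, with 642 bases and a difference of 2.13, stood off the trend. The part of length in the difference between groups was not tested.

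**Figure D4:**
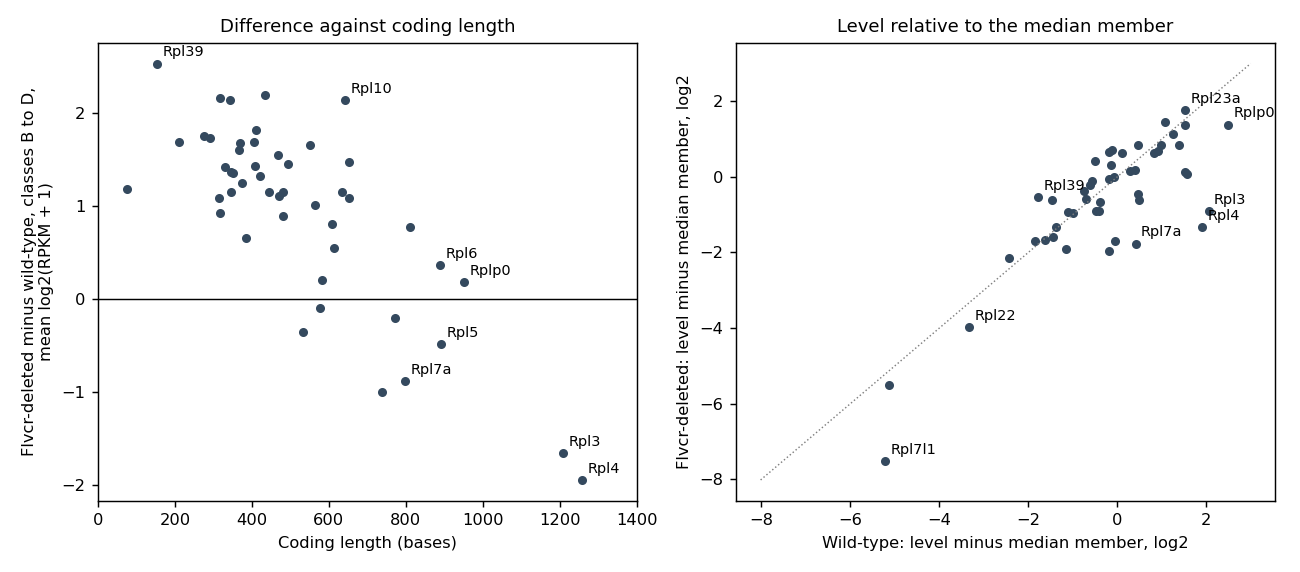
Left, the difference between Flvcr-deleted and wild-type cells (classes B to D) against coding length for 48 of the 49 members; right, each member's level relative to the median member in wild-type (x) and Flvcr-deleted cells (y), with a dotted line of equality. Rpl3 and Rpl4, the longest members, lie lowest on the left and furthest below the line among the abundant members on the right.

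Small-subunit genes had medians close to those of the large-subunit ones. The 33 kept small-subunit genes had a median difference of 1.23 between Flvcr-deleted and wild-type cells (22 higher, 0 lower), of -1.28 between EPO-treated and wild-type cells (0 higher, 10 lower) and of 2.64 between Flvcr-deleted and EPO-treated cells (24 higher, 0 lower). The ratio of summed large- to small-subunit RPKM in a cell of classes B to D had a median of 1.05 (range 0.822 to 1.76) in Flvcr-deleted, 1.25 (0.810 to 2.59) in wild-type and 1.18 (0.551 to 3.54) in EPO-treated cells. Over the 42 wild-type cells of classes B to D, the gene outside the family most like the per-cell median member was Rps3a1, with a Spearman correlation of 0.94, followed by Rps18 and Rps19. Of the 10 most alike, 8 encode small-subunit proteins; the other two were Eef1a1 (0.92), the elongation factor that brings transfer RNA to the ribosome, and C330021F23Rik (0.92). All points share the libraries and their depth.

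Genes that build or serve the large subunit were listed apart. Of 29 large-subunit assembly factors found in the table, 10 were kept. Their median difference between Flvcr-deleted and wild-type cells was -0.62, above the -1.08 of all kept genes, with 0 higher and 2 lower (all kept genes: 3.74% and 48.3%). The lower ones were Sbds, which frees new subunits of a blocking factor, at -1.61, and Nsa2, at -1.07. The 7 elongation factors had a median of -1.69, below that of all kept genes, with 0 higher and 6 lower, led by Eif5a (-4.11), Eef1g (-2.51) and Eef2 (-2.48), which moves the ribosome along the message. Eef1b2 was the other member, at 0.24. For EPO-treated against wild-type cells the medians of the 2 lists were -0.46 and -1.92, beside -0.99 for all kept genes. For Flvcr-deleted against EPO-treated cells they were -0.01 and 0.29, beside -0.12.

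Class A differed from the rest. Its cells were unlike between groups: globins took at most 0.199% of summed RPKM in the wild-type ones, a median of 20.2% (up to 89.5%) in the Flvcr-deleted ones and a median of 1.26% (up to 38.4%) in the EPO-treated ones. At least 3 of 8 erythroid markers were detected in 3 of 6 wild-type, 14 of 18 Flvcr-deleted and 3 of 7 EPO-treated cells, and the part of this in the differences was not tested. The median of the member means was 8.22 in wild-type, 6.47 in EPO-treated and 5.39 in Flvcr-deleted cells. Against wild-type, 48 of 49 members were lower and 0 higher in Flvcr-deleted cells, with a median of -2.71 (all kept genes: 63.7% lower, 2.76% higher). In EPO-treated cells the median was -1.46, with 31 lower and 0 higher (50.3% lower and 7.87% higher). Between Flvcr-deleted and EPO-treated cells 4 were higher and 24 lower, with a median of -0.97 (5.83% and 35.4%).

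The Flvcr-deleted class A cells carried a suffix a or d, 9 cells each. The median of the member means was 9.35 in suffix a and 1.77 in suffix d, and 48 of 49 members were lower in suffix d by a median of 7.15 on the log2 scale, with 0 higher, against 61.6% lower and 0.512% higher of all kept genes. Suffix d cells had a median of 343 detected genes and an estimated 222884 reads, suffix a cells 1381 detected genes and 1564210 reads. Their summed RPKM ran from 9196 to 339435 (median 21378) in suffix d and from 364471 to 1609940 (median 616778) in suffix a. As a share of RPKM outside the globins, the members took 0.505% to 36.3% (median 10.0%) and 8.44% to 24.4% (median 19.2%). The part of depth and of summed RPKM in this difference was not tested. Without suffix d the class A median of Flvcr-deleted minus wild-type cells turned from -2.71 to 0.90, and that of Flvcr-deleted minus EPO-treated cells from -0.97 to 2.65.

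Within each group the median member of a cell was lower where globins took more of the RPKM. The Spearman correlation over cells of classes B to D was -0.94 in 30 Flvcr-deleted and -0.94 in 42 wild-type cells, and -0.58 in the 21 EPO-treated cells of chip SCP7. It was 0.76, 0.94 and 0.87 against the number of detected genes. Against the Ter119 signal imaged on the same cell, a surface marker that increases as erythroblasts mature, it was -0.33, -0.34 and -0.52. Cells of 1 group share a chip, and the shares in a cell sum to a fixed total, so these are descriptions without a test.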

How the data were processed

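Single marrow cells were captured on a Fluidigm C1 system, imaged for Ter119 and sequenced after SMART-Seq amplification with Nextera XT library preparation (per the labels' protocols). The authors deposited 1 table of RPKM values, with 34898 transcript rows; 4 columns of no sample were not used here. The submitters' processing notes name TopHat2 2.0.9 and the mm9 build. Which tool counted the reads, how multiple matches were handled and which cells were filtered is not given in the sources used here. EPO-treated columns hold at most 2 decimals and may have been processed apart.

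A gene was the row with the highest mean RPKM per symbol (9 members had several rows). Means of log2(RPKM + 1) per class were differenced with a pseudocount of 1, averaged over classes B to D with equal weight, and a gene was kept where its mean over all cells reached 1. With 1 sample per group no test was made. Coding lengths came from GENCODE vM21, of another build than mm9, for 52 of the 53 members, and read depth was estimated from the commonest low value after removing gene length. Lists and members were chosen with earlier results of these data known. The text names members from these: the 6 at each end of every pair of groups, the 3 at each end of class D minus class B, the 5 most and 5 least abundant in wild-type cells, role-list members, members that failed the filter, and the 10 genes most like the median member. It names a part of them. One member is not reported here by name or drawn, but counts and medians include it. Other members named beside these were chosen after their values were seen. Alternatives changed the pseudocount, filter, scaling, row choice, cells and classes. Calculations used Python 3.11.15, numpy 2.4.6, pandas 2.3.3 and scipy 1.17.1, and were tested on simulated data.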

Additional observations from a re-analysis of the deposited data

Results flagged for a closer look

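In EPO-treated class D, with 4 cells, cell 14 stood far above the others in the share of summed RPKM taken by the large-subunit genes, 1.58% against at most 0.212% in the other 3. It had 927 detected genes. Its Rpl8 was 3391 RPKM and its Rpl4 1225 RPKM, while Rpl39, Rpl5 and Rpl35 were listed at 0. Shares and median member levels were examined in 7 classes of 4 to 10 cells, 14 sets of values in all. A set was marked by the gap from its extreme cell to the nearest one, relative to its range. Chance would mark about 1 in 20 such sets only for normally distributed values, which was not checked. Leaving this cell out, a choice made after seeing the data, gave a median of -1.09 against wild-type cells and 2.20 for Flvcr-deleted minus EPO-treated cells.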

How the results depend on the processing

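No paired analysis was possible because the results come from no test: each group is 1 sample. Of 200 recomputed family values, 144 stayed within 1.5-fold of the value reported, 52 moved further and 4 turned sign. For 36 gene values, each under its alternatives, the numbers were 338, 125 and 5 of 468. For single genes a turn of sign was counted only where the gene had been counted as higher or lower. Turns of other genes, such as Rplp2 and Rpl31 in EPO-treated minus wild-type, fall under the first 2 numbers. Over all 49 members, the 2 other scalings turned the sign of 9 in Flvcr-deleted minus wild-type, of 9 in EPO-treated minus wild-type and of 12 in Flvcr-deleted class D minus class B. Where no value shows it, the cause was not tested. Counts of members under the alternatives, here and above, are given without the share of all kept genes in the same setting. They do not show what is particular to the family.

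With every cell scaled to 1 sum of RPKM, the median of Flvcr-deleted minus wild-type was 0.34 (5 higher, 6 lower) and -3.61 in class A, that of Flvcr-deleted minus EPO-treated 1.42 (9 higher) and -2.09 in class A. Class D minus class B then gave 0 higher and 39 lower in Flvcr-deleted cells, a median of -2.67 in wild-type cells and one of -5.92 in EPO-treated cells. Without globins in the sum, which left 48 members past the filter, 0 members were lower in Flvcr-deleted than wild-type cells, the class A medians were -2.04 (Flvcr-deleted minus wild-type) and -0.81 (EPO-treated minus wild-type), 12 members were lower in class D of Flvcr-deleted cells, and the EPO-treated class D minus class B median was -4.23.

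In cells with 1000 to 2000 detected genes, the Flvcr-deleted minus wild-type median was 3.32 (0 lower) and the EPO-treated minus wild-type median turned to 1.32 (18 higher, 0 lower). The class A median of Flvcr-deleted minus EPO-treated turned to 3.77. Class D minus class B gave 6 higher and 15 lower in Flvcr-deleted cells, a median of -0.85 with 6 higher and 23 lower in wild-type cells, and a median of -4.09 in EPO-treated cells. Rpl4 (0.075) and Rpl3 (0.56) turned sign in Flvcr-deleted minus wild-type, and Rpl7 (0.017), Rpl29 (0.054) and Rpl35 (0.14) in EPO-treated minus wild-type cells. No wild-type class A cell lay in this range, so its class A values against wild-type could not be had.

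With class A included, Flvcr-deleted minus wild-type was 0.23 (0 higher, 5 lower) and Flvcr-deleted minus EPO-treated 1.40 (8 higher). Without the 4 low-globin Flvcr-deleted class B cells, 19 members were higher and 4 lower than in wild-type, and class D minus class B gave 3 higher and 9 lower. With a pseudocount of 10, the class A medians were -1.50 for Flvcr-deleted cells against wild-type and -0.34 for the same cells against EPO-treated, EPO-treated minus wild-type was -0.48, Flvcr-deleted minus EPO-treated 1.38, and class D minus class B gave 0 higher in Flvcr-deleted cells and a median of -3.58 in EPO-treated cells. With no filter on low values, 2 members were higher in class D of Flvcr-deleted cells. With every cell weighted alike, EPO-treated minus wild-type was -0.29 (8 lower).

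Without class B, EPO-treated minus wild-type was -1.71 (33 lower) and Flvcr-deleted minus EPO-treated 3.20 (46 higher). Without class D they were -0.40 (1 higher) and 1.36, and without class C 1 member was lower in Flvcr-deleted than EPO-treated cells. Without suffix d, the class A medians of Flvcr-deleted cells turned to 0.90 against wild-type and 2.65 against EPO-treated cells. Without the 4 cells of chip SCP6, EPO-treated minus wild-type was -1.32 (20 lower). Values near 1 read cannot be told from 0 at this depth.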
